A study of Mus musculus with 11 samples.

Results

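DSIF and NELF are the protein complexes that hold RNA polymerase II (Pol II) close to the start of a gene, and the 6 mouse genes that encode their subunits were followed here in the striatum. The genes were taken by name from the deposited expression table: Supt4a and Supt5 for DSIF, and Nelfa, Nelfb, Nelfcd and Nelfe for NELF. All 6 were among the 20957 genes of the table, and all 6 passed the filter on low values with 16768 genes in total (3 or more libraries with a normalized read count of 10 or higher). Supt5 encodes Spt5, and the study describes the compounds SPI-24 and SPI-77 as inhibitors of Spt5 with Pol II. The levels of Supt5 and its partners show whether the treated tissue held more or less of the mRNA of the targeted machinery. The study asked how these compounds act on gene expression in mice that model Huntington's disease.

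The 11 libraries came from striatal tissue of BACHD mice. These mice carry, beside their own Htt genes, a bacterial artificial chromosome with full-length mutant human HTT under the human gene's own regulatory sequences, and all 3 groups shared this genotype. The groups were 4 DMSO (vehicle), 4 SPI-24 and 3 SPI-77 libraries, each from mice injected under the skin on 4 successive days and killed 6 h after the last injection. The labels name each library a biological replicate and give no dose, age or sex, and there was no wild-type group. For this reason SPI-24 and SPI-77 were each compared with DMSO and not with each other, and both comparisons share the same DMSO libraries.

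As background, DSIF is a dimer of the small protein Spt4 and the large protein Spt5. It joins Pol II soon after initiation and, together with the 4-subunit NELF complex, keeps the enzyme paused a short way into the gene. The kinase P-TEFb then phosphorylates Spt5, NELF and the tail of Pol II, NELF leaves, and DSIF travels on with Pol II as an elongation factor. Spt4 and Spt5 are known for helping Pol II through long repeats, which is why they are studied in repeat expansion diseases. The values below are mRNA levels, and neither protein amounts nor pausing were measured.

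Libraries differed in depth and in tissue make-up. The recovered reads ran from 10.2 M to 33.8 M per library, and the least covered member in any library was Nelfa with 287 reads. The score of 13 medium spiny markers, a mean log2 level of genes of the main striatal projection neuron, was 9.93 to 12.06 with DMSO, 7.63 to 11.82 with SPI-24 and 7.60 to 8.38 with SPI-77. Thus every SPI-77 library was below every DMSO library. The summed normalized count of these markers was 25782 to 97530 with DMSO, 4823 to 86657 with SPI-24 and 6126 to 9545 with SPI-77. The score of 8 thalamic markers was 7.59 to 9.92 with DMSO, 9.32 to 11.25 with SPI-24 and 9.62 to 10.09 with SPI-77. Of the defining medium spiny markers Drd1 was detected in every library, at 18.7 in SPI-77 1 up to 1505 in DMSO 2, while the cholinergic marker Chat was at 0 in SPI-77 1. The score of 4 cholinergic markers was 6.11 to 7.64 with DMSO, 1.40 to 6.54 with SPI-24 and 1.25 to 3.18 with SPI-77. With SPI-77, 6 of the 13 medium spiny and all 4 cholinergic markers fell and 2 of the 8 thalamic markers rose by the test used below, and with SPI-24 none did. By Xist and Ddx3y the SPI-77 libraries were all male, whereas DMSO and SPI-24 held both sexes, and SPI-24 4 had the fewest genes above 0 (16263) despite 26.0 M reads. The part of tissue make-up and sex in the differences below was not tested, and fits with these as terms are descriptions. Since the medium spiny scores of SPI-77 and DMSO did not overlap, a fit with that score cannot separate it from treatment. In bulk tissue fewer cells of a type and less RNA per cell cannot be told apart.

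All coordinates are for GRCm38. Supt4a lies on chromosome 11 at 87737552 to 87743623 (+ strand), Supt5 on chromosome 7 at 28314891 to 28338746 (- strand) and Nelfa on chromosome 5 at 33897916 to 33936413 (- strand). Nelfb and Nelfcd share chromosome 2 but are far apart, at 25199712 to 25211489 (- strand) and 174415804 to 174427502 (+ strand), and Nelfe is on chromosome 17 at 34850391 to 34856372 (+ strand). All are protein coding genes. Exons of the antisense gene Gm44709 cover 433 bases (7.5%) of the Supt5 exons, the opposite-strand gene Nsd2 covers 60 bases (1.5%) of Nelfa and Ctsz covers 10 bases (0.3%) of Nelfcd. The libraries were stranded, but no source used here says whether reads were counted by strand. The Supt5 count over the bases shared with Gm44709 is therefore uncertain.

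Supt4a has a processed copy, Supt4b, on chromosome 10 at 31413815 to 31414165. Over 351 compared bases the copies were 99.1% identical, with 3 differences, A69G, C132T and T230A (the Supt4a base, the position counted from the first base of the Supt4a transcript, then the Supt4b base). Of the 657 stretches of 50 bases in the Supt4a transcript, 181 (27.5%) also occur elsewhere among annotated transcripts, in Supt4b or antisense in Gm48094. A 50-base read from such a stretch maps to more than 1 region and was dropped by the authors, which lowers the Supt4a values in all libraries. The longest shared run has 169 bases and is shown because a read lying wholly within it cannot be assigned to either copy; it starts at base 231 of the transcript and is given in lower case throughout.
Supt4a and Supt4b, shared run: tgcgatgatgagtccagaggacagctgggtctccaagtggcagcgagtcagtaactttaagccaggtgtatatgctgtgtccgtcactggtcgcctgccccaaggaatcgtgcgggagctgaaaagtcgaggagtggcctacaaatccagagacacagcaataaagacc
The same count was 9.1% for Supt5, against its antisense gene, 0.4% for Nelfa and 0% for Nelfb, Nelfcd and Nelfe. For Supt5 and Nelfa the other gene covers the same genomic bases on the opposite strand. Such stretches do not make a read map to more than 1 region.

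Promoter windows of RefSeq (GRCm38.p6), from 250 bases before to 50 after the start that RefSeq gives, were found for 4 of the 6 genes. For Supt4a, Supt5 and Nelfa that start is not the one of the gene coordinates above. The windows are printed to show the letters they hold, and no link between these letters and the levels of the genes was tested. Capitals mark matches on either strand. The letters AAGATGG were marked as a YY1 core. The letters CCGGAAG were marked as an ETS core. The letters GGGCGG were marked as a GC box. The letters TATAAA were marked as a TATA box. The letters CACGTG, an E box, were searched as well. None of the marked matches overlap.
Supt4a, chr11:87737301-87737600, + strand: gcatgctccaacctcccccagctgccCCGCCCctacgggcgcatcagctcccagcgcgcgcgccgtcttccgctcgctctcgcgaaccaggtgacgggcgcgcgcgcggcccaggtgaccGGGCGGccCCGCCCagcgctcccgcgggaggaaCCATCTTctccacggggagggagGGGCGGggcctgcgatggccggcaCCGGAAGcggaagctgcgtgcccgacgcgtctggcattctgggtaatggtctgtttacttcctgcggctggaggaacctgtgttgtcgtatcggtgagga
Supt5, chr7:28338670-28338969, - strand: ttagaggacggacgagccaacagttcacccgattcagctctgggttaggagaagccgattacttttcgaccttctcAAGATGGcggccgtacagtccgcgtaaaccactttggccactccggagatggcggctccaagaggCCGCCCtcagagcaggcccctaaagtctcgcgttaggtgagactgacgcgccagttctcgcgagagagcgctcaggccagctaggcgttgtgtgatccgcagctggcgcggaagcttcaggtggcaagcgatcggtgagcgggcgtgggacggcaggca
Nelfa, chr5:33936222-33936521, - strand: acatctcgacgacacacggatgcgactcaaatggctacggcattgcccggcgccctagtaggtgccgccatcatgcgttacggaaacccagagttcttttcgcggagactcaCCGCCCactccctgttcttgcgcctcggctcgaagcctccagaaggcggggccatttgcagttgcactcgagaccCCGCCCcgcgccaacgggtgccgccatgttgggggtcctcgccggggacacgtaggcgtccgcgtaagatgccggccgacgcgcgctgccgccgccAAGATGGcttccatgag
Nelfb, chr2:25211440-25211739, - strand: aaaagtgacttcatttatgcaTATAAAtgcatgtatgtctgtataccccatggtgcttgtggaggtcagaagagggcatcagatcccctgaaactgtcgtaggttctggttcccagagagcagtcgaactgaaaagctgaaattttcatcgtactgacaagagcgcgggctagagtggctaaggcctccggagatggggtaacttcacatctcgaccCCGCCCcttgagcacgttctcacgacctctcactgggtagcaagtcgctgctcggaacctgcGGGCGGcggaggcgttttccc
The YY1 core was present in the windows of Supt4a, Supt5 and Nelfa, against 6.34% of all 32851 windows in the table. Counted from the RefSeq start, its first base stood at -97 in Supt4a, at -174 in Supt5 and at 34 in Nelfa. All 4 windows held a GC box, against 35.66% of all windows. The ETS core occurred in Supt4a (8.86% of all windows) and TATAAA only in Nelfb, at -229 (13.62%). The E box, found in 7.15% of all windows, was in none of the 4. The windows of Supt4a, Supt5 and Nelfa were 71.0%, 61.3% and 65.3% G and C, and that of Nelfb 53.0%. In the same order they stood at percentiles of 91.8, 73.8, 82.3 and 50.1 of all windows. The shares of all windows given above were not adjusted for this content. These matches describe the letters and do not show that a factor binds.

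Per kilobase of exon, Supt5 had the highest counted level of the 6 mRNAs in vehicle-treated striatum. Its rank above Supt4a is uncertain, since reads shared with Supt4b were dropped from Supt4a. The Supt5 count over the bases shared with Gm44709 is uncertain as well. The Supt5 level with DMSO was 495 ± 77.7 normalized counts per kilobase (SD, n = 4), higher than 90.3% of the genes tested. Supt4a followed at 413 ± 55.8 (SD, n = 4), Nelfcd at 368 ± 77.6 (SD, n = 4) and Nelfb at 311 ± 50.4 (SD, n = 4). Neighbours in this order overlapped: Supt5 ran from 430 to 586 per kilobase, Supt4a from 356 to 474, Nelfcd from 308 to 481 and Nelfb from 262 to 356. Nelfe was at 240 ± 34.6 (SD, n = 4), from 189 to 261, with its highest value just below the lowest of Nelfb. Nelfa, whose protein contacts Pol II, was lowest at 110 ± 5.10 (SD, n = 4), from 103 to 115, and did not overlap with any of the others. Its mRNA was thus the scarcest of the 4 NELF subunits per unit of length. Division by the longest coding transcript instead of all exons kept this order.

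The 6 mRNAs varied less between animals of a group than the median gene tested. The SD of log2 levels within groups was 0.0946 for Nelfa, lower than in all but 1.0% of the genes tested, and between 0.160 (Supt5) and 0.224 (Nelfcd) for the others. The median gene had 0.350. Even Nelfcd, the most variable member, was below 0.350, at a percentile of 25.7. This comparison was not matched for expression level. By mean normalized count the members stood between the percentiles of 61.8 (Supt4a) and 94.0 (Supt5) of genes tested.

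**Figure D1:**
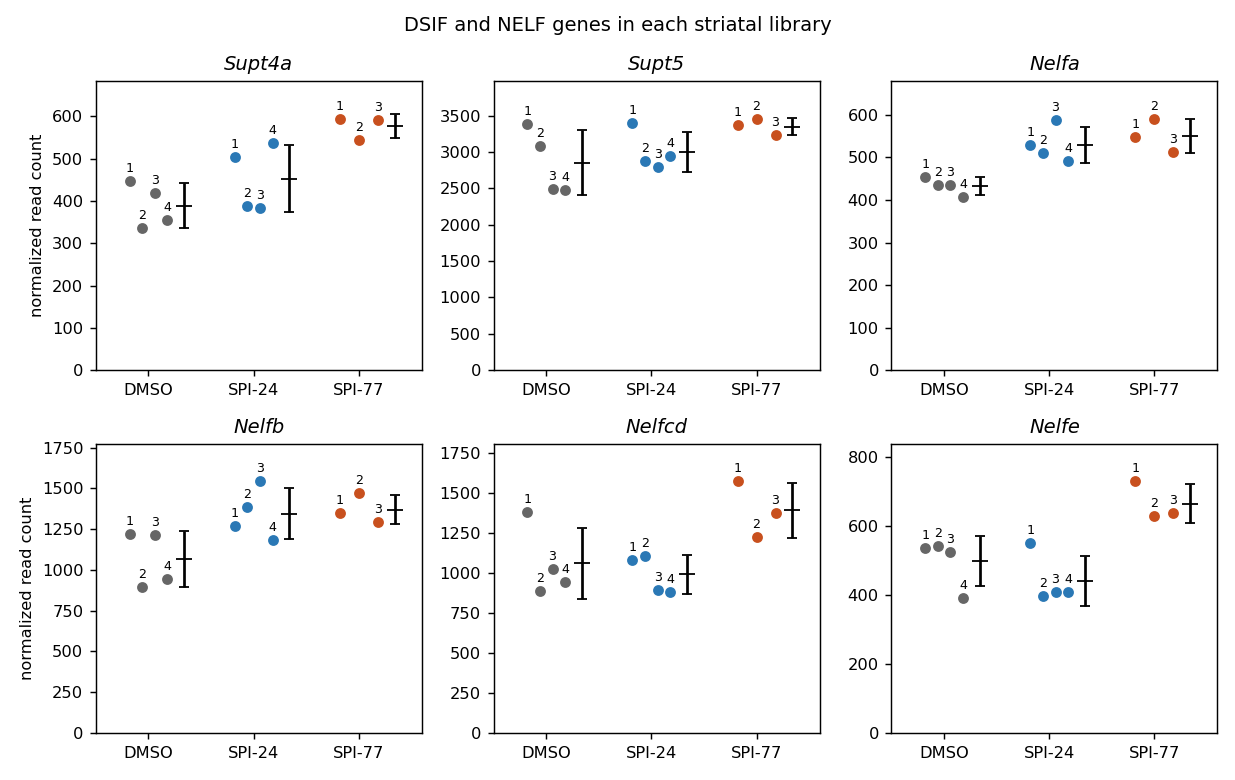
Normalized read count of each gene (vertical axis, starting at 0) in the DMSO, SPI-24 and SPI-77 libraries. Points are libraries with their replicate number and the bar beside them is the mean and SD. The 3 SPI-77 points lie above all DMSO points for Supt4a, Nelfa, Nelfb and Nelfe, and the SPI-24 points do so only for Nelfa. Of all genes tested, 17.2% lay wholly above DMSO with SPI-77 and 0.99% with SPI-24.

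With SPI-77, Supt4a was the member that rose. Its normalized counts were 447.0, 335.7, 418.0 and 353.7 in DMSO 1 to 4 and 594.1, 544.6 and 590.9 in SPI-77 1 to 3. The groups did not overlap, and the lowest SPI-77 library was 544.6 against a highest DMSO library of 447.0. With SPI-77, 17.2% of all genes tested separated upward in this way. The log2 difference from DMSO was 0.58 ± 0.17 (SE), a 1.49-fold higher level (95% interval 1.16 to 1.92), with an adjusted p of 0.0362 by limma across all genes. Of the 16768 genes 8.03% rose by this rule and 9.14% fell, so 1 riser of 6 is not a result about the group of genes. No member rose at least 2-fold by this rule, and 1.12% of all genes tested did.

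The Supt4a difference kept its sign and its size, 0.51 to 0.65, with any 1 library left out, but the call rested on single libraries. Without DMSO 2, DMSO 3, DMSO 4, SPI-77 1, SPI-77 2 or SPI-77 3 the limma adjusted p was 0.109, 0.0540, 0.0950, 0.102, 0.0697 and 0.118. With the medium spiny or the thalamic score as a covariate the difference was 0.76 and 0.59, with limma adjusted p of 0.267 and 0.167. Among male libraries alone (2 DMSO and 3 SPI-77), a comparison chosen after seeing the data, the difference was 0.74 (adjusted p = 0.00631 by limma). The 2 male DMSO libraries, DMSO 2 and DMSO 4, had the highest medium spiny scores (12.06 and 11.48) of the DMSO group. Their thalamic scores (7.59 and 7.79) were its lowest, and this fit called 6232 genes.

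Supt5 itself, the gene of the targeted protein, did not pass the test with SPI-77. It had 3379, 3076, 2485 and 2479 normalized counts in DMSO 1 to 4 and 3365, 3457 and 3229 in SPI-77 1 to 3. DMSO 1 was as high as the SPI-77 libraries, so the groups overlapped. Against DMSO the log2 difference was 0.24 ± 0.13 (SE), a 1.18-fold level with a 95% interval from 0.968 to 1.45, and the limma adjusted p was 0.211. The interval thus reached little below the DMSO level. For each 100 counts of Supt5 there were 10.9 to 16.8 of Supt4a with DMSO and 15.8 to 18.3 with SPI-77, which overlap.

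The 4 NELF genes each averaged 1.27-fold to 1.34-fold higher with SPI-77 than with DMSO, and none passed the adjusted threshold. Nelfa had 455.0, 435.8, 434.6 and 406.1 normalized counts in DMSO 1 to 4 and 547.4, 590.8 and 512.3 in SPI-77 1 to 3. These groups did not overlap, an upward separation seen in 17.2% of all genes tested. Nelfa differed by 0.34 ± 0.13 (SE) on the log2 scale with a limma adjusted p of 0.0787. DESeq2 on the recovered reads gave 0.35 and an adjusted p of 0.0422.

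Nelfb, which encodes the subunit that binds NELF-E within the complex, had 1220, 898, 1214 and 941 normalized counts in DMSO 1 to 4 and 1348, 1469 and 1294 in SPI-77 1 to 3. DMSO 1 and 3 came close to the SPI-77 libraries without reaching them. On the log2 scale Nelfb differed by 0.37 ± 0.15 (SE) with a limma adjusted p of 0.0927. This became 0.44 with an adjusted p of 0.0419 by limma without DMSO 1, and 0.08 with the medium spiny score and 0.12 with the thalamic score as a covariate, where limma gave adjusted p of 0.822 and 0.640.

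Nelfcd encodes NELF-C and NELF-D, forms of the same subunit that differ in where translation starts. Its normalized counts were 1386, 887, 1028 and 945 in DMSO 1 to 4 and 1574, 1227 and 1378 in SPI-77 1 to 3. DMSO 1 lay among the SPI-77 libraries and the other DMSO libraries lay below them. Its log2 difference was 0.41 ± 0.17 (SE) with a limma adjusted p of 0.103, and 0.54 with an adjusted p of 0.0152 without DMSO 1. It was 0.19 in the fit with the medium spiny covariate, where limma gave an adjusted p of 0.663.

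Nelfe, which encodes the RNA-binding subunit, had 537.7, 541.5, 525.0 and 391.6 normalized counts in DMSO 1 to 4 and 729.9, 629.3 and 637.3 in SPI-77 1 to 3. All SPI-77 libraries were above all DMSO libraries, as they were for 17.2% of all genes tested. For Nelfe the log2 difference was 0.42 ± 0.17 (SE) with a limma adjusted p of 0.0913. It was 0.31 without DMSO 4, the low DMSO library.

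As a group, all 6 members lay above 0 with SPI-77, with a median log2 difference of 0.39, where the median of all genes tested was -0.01 and 49.2% of genes lay above 0. By a limma p below 0.05 before adjustment, 5 of 6 were higher, against 16.5% of all genes. Without overlap between the groups, 4 of 6 were higher, against 17.2% of all genes. The members' differences stood between the percentiles of 66.4 (Supt5) and 85.5 (Supt4a) of all genes, so many genes differed by more. The members share libraries and are not replicates, and these counts were not tested as a set. The medium spiny score was lower in all 3 SPI-77 libraries than in any DMSO library. With that score as a covariate the differences of Supt4a, Supt5 and Nelfe were 0.76, 0.30 and 0.48, and those of Nelfa, Nelfb and Nelfcd were 0.26, 0.08 and 0.19, none past the adjusted threshold by limma.

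**Figure D2:**
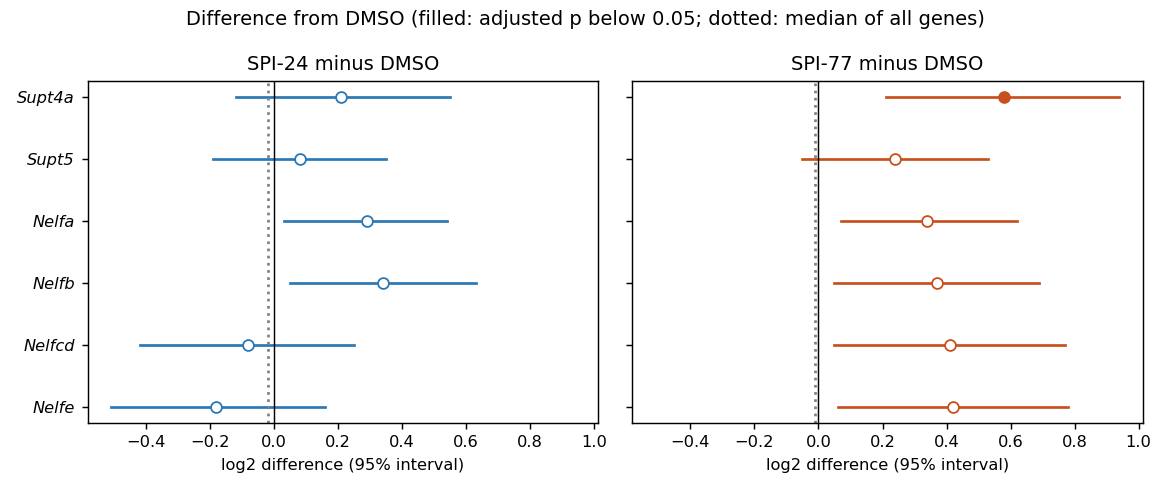
Log2 difference from DMSO (horizontal axis) of each gene with SPI-24, left, and SPI-77, right. Points are limma estimates, lines are 95% intervals and the dotted line is the median of all genes tested. With SPI-77 every estimate is above 0 and only Supt4a, at 0.58, is filled as past the adjusted threshold. With SPI-24 none is filled, and Nelfcd and Nelfe are below 0.

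With SPI-24, no member passed the adjusted threshold, and neither did any of the 16768 genes (0.0% higher and 0.0% lower). Before adjustment 625 genes had a limma p below 0.05, fewer than chance alone would give on average among 16768 genes. edgeR and DESeq2 on the recovered reads also called 0 genes, and 539 and 834 genes were below 0.05 before adjustment. The smallest limma adjusted p was 0.975. The members split in sign: both DSIF genes, Nelfa and Nelfb lay above 0, and Nelfcd and Nelfe below it. The median log2 difference of the 6 was 0.15, beside -0.02 over all genes tested, of which 46.1% lay above 0.

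Nelfa and Nelfb were the members furthest from DMSO with SPI-24. Nelfa had 529.4, 510.3, 587.0 and 490.6 normalized counts in SPI-24 1 to 4, all above its highest DMSO library at 455.0. Such separation upward was seen in 0.99% of all genes. The log2 difference was 0.29 ± 0.12 (SE), a 1.22-fold level with a 95% interval of 1.02 to 1.46, and the limma adjusted p was 0.975. It ran from 0.24 to 0.32 with any 1 library left out.

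Nelfb had 1269, 1384, 1542 and 1182 normalized counts in SPI-24 1 to 4. The lowest of these, SPI-24 4, was below DMSO 1 at 1220 and DMSO 3 at 1214, so the groups overlapped. The log2 difference was 0.34 ± 0.14 (SE), with a limma adjusted p of 0.975. Before adjustment, 1.87% of all genes were higher with SPI-24 at a limma p below 0.05, Nelfa and Nelfb among them. With the thalamic score as a covariate Nelfb differed by 0.03 and Nelfa by 0.20, and among female libraries alone, a comparison chosen after seeing the data, they differed by 0.07 and 0.20. The female DMSO libraries, DMSO 1 and DMSO 3, had the highest thalamic scores of the DMSO group, 8.96 and 9.92. SPI-24 3, which had the highest Nelfb value and thalamic score, was male and so was left out.

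Supt4a with SPI-24 fell into a high and a low pair. SPI-24 1 and SPI-24 4 had 503.5 and 537.6 normalized counts, above all DMSO libraries, while SPI-24 2 and SPI-24 3 had 387.1 and 382.4, inside the DMSO range. The log2 difference was 0.21 ± 0.16 (SE), with a 95% interval from -0.12 to 0.55 and a limma adjusted p of 0.975. The low pair were also the SPI-24 libraries with the lowest medium spiny scores, 7.63 and 7.68, beside 10.51 and 11.82 in the high pair. Without DMSO 4 and SPI-24 4 the difference was 0.08.

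Supt5 had 3403, 2878, 2792 and 2943 normalized counts in SPI-24 1 to 4, within the DMSO range except for SPI-24 1. The log2 difference was 0.08 ± 0.12 (SE), with a 95% interval from -0.19 to 0.35 and a limma adjusted p of 0.985. Nelfcd had 1084, 1110, 895 and 883, and differed by -0.08 ± 0.15 (SE) with an interval from -0.42 to 0.25. Nelfe had 549.9, 398.3, 409.3 and 410.0, and differed by -0.18 ± 0.15 (SE) with an interval from -0.51 to 0.16. For both genes SPI-24 overlapped with DMSO, and the Nelfcd difference turned to 0.05 without DMSO 1.

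Because Nelfb lay higher and Nelfcd lower with SPI-24, the mix of NELF transcripts was described within each library. The ratio of Nelfb to Nelfcd normalized counts was 0.881, 1.01, 1.18 and 0.996 in DMSO 1 to 4 and 1.17, 1.25, 1.72 and 1.34 in SPI-24 1 to 4. Only SPI-24 1 fell inside the DMSO range. In SPI-77 1 to 3 the ratio was 0.856, 1.20 and 0.939, which runs just past both ends of the DMSO range. The ratio of Nelfa to Nelfe was 0.805 to 1.04 with DMSO, 0.963 to 1.43 with SPI-24 and 0.750 to 0.939 with SPI-77. These ratios were chosen after seeing the values and were not tested.

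Across the 11 libraries Nelfa and Nelfb were the most alike of the members, with Pearson's r of 0.87 (Spearman's rho 0.86) over log2 levels. Next by r came Nelfcd and Nelfe at 0.76 (rho 0.59), while by rho Nelfe was closer to Supt5 (0.77, r of 0.69) and to Supt4a (0.74, r of 0.64). Nelfb and Nelfe, whose proteins bind each other, were at 0.18 (rho 0.20). Supt4a and Supt5, partners in DSIF, were at 0.63 (rho 0.62), and Supt4a and Nelfcd at 0.66 (rho 0.63). All points share the library and its tissue make-up, so these values are descriptions over 11 libraries and carry no test.

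Nelfb followed the thalamic markers closely. Over the 11 libraries its log2 level and the thalamic score had r of 0.94 (rho 0.80), 0.78 without DMSO 2 and DMSO 4, the libraries farthest from the median score, and 0.91 after the group means were removed from both. The highest Nelfb value, 1542 in SPI-24 3, came with the highest thalamic score, 11.25, and the lowest, 898 in DMSO 2, with the lowest score, 7.59. For Nelfa the same r was 0.76 (rho 0.56), and 0.52 after removing group means. The other members had an r between -0.04 (Nelfe) and 0.35 (Supt4a), which became -0.46 (Nelfe), -0.49 (Supt4a), -0.51 (Nelfcd) and -0.52 (Supt5) without DMSO 2 and DMSO 4. Against the medium spiny score Nelfb had r of -0.82 and Supt4a of -0.38, and after removing group means -0.73 and 0.43. These are among 30 correlations of the 6 genes with 5 marker scores, given as descriptions.

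**Figure D3:**
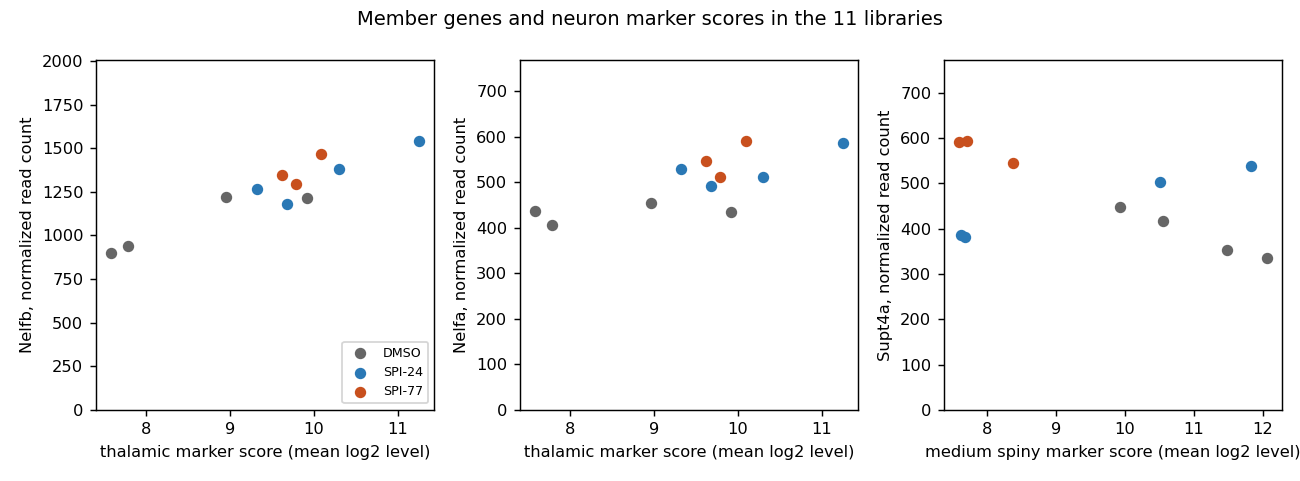
Normalized read count of Nelfb and Nelfa against the thalamic marker score, and of Supt4a against the medium spiny marker score (mean log2 levels, horizontal axes), with 1 point per library colored by group. Nelfb lies higher where the thalamic score is higher, from 898 at 7.59 to 1542 at 11.25. Supt4a is at least 544.6 in the 3 SPI-77 libraries, with medium spiny scores of 7.60 to 8.38. It is 382.4 to 537.6 in the 4 SPI-24 libraries, with scores of 7.63 to 11.82.

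Among 11172 tested genes with a mean normalized count of at least 100, those most like each member over the 11 libraries were as follows. For Supt4a they were Fam96b (r of 0.97), Tmem192 (0.96) and Gm38157 (0.95), and for Supt5 they were Fbf1 (0.96), Smg6, a nuclease of nonsense-mediated decay (0.95), and Zfp865 (0.94). For Nelfa they were the splicing regulator Sfswap (0.93), the nucleoside transporter gene Slc29a1 (0.93) and the deacetylase gene Hdac6 (0.92). Nelfb was most like Smtn, Stat2 and Zw10 (each 0.97). Among the genes most like Nelfcd were Mmd2 (0.96) and Poldip2 (0.96), and Nelfe was most like BC029722 (0.95), the ubiquitin ligase gene Stub1 (0.93) and the aldehyde dehydrogenase gene Aldh2 (0.92). No member was among the 3 genes most like another.

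The wider elongation machinery did not move in a common direction with SPI-77. Of 40 other genes of Pol II elongation that were tested, 5 rose and 8 fell, where 8.03% of all genes rose and 9.14% fell. Their median log2 difference was 0.06, beside 0.39 for the 6 members. By group the median ran from -0.65 (super elongation complex) to 0.37 (Pol II and its elongation partners), and the PAF1 complex had 0.29. All calls of this kind were lost in limma when DMSO 2, DMSO 4, SPI-77 1 or SPI-77 3 was left out, since 0 genes were then called. The kinase P-TEFb, which releases the pause, and its 7SK partners had 1 riser of 7, Mepce, the 7SK capping enzyme gene, at 0.46 ± 0.14 (SE, limma adjusted p = 0.0404), while the kinase gene Cdk9 differed by 0.11 ± 0.12 (SE). Of the super elongation complex, which delivers P-TEFb, 4 of 8 fell and none rose, against 9.14% of all genes that fell. These were the scaffold gene Aff4 (-1.31 ± 0.27, SE), the elongation factor gene Ell2 (-1.40 ± 0.37, SE), Eaf1 (-0.89 ± 0.25, SE) and Mllt3 (-0.74 ± 0.20, SE), with limma adjusted p of 0.0179, 0.0279, 0.0321 and 0.0281. Aff4 went from 1382 ± 460 (SD, n = 4) with DMSO to 534 ± 114 (SD, n = 3) with SPI-77.

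Of the PAF1 complex, which travels with elongating Pol II, Paf1 (0.41 ± 0.11, SE) and Rtf1 (0.51 ± 0.15, SE) rose among 6, with limma adjusted p of 0.0259 and 0.0347. Among 7 genes of Pol II and its elongation partners, Tcea2, a gene of the TFIIS family that restarts arrested Pol II, and Gtf2f1, which encodes a TFIIF subunit, rose by 0.84 ± 0.17 and 0.75 ± 0.15 (SE), both with a limma adjusted p of 0.0179. Iws1 (-0.86 ± 0.22, SE) and Supt16 (-0.70 ± 0.21, SE) fell among 4 genes of Spt6 and the histone chaperone FACT, with limma adjusted p of 0.0256 and 0.0367. The capping enzyme gene Rngtt (-0.75 ± 0.20, SE, limma adjusted p = 0.0287) and the Integrator gene Ints6 (-0.86 ± 0.27, SE, limma adjusted p = 0.0447) also fell, each 1 of 4. With either the medium spiny or the thalamic score as a covariate, limma called 0 of all genes with SPI-77, and 2837 and 3459 genes were below 0.05 before adjustment.

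**Figure D4:**
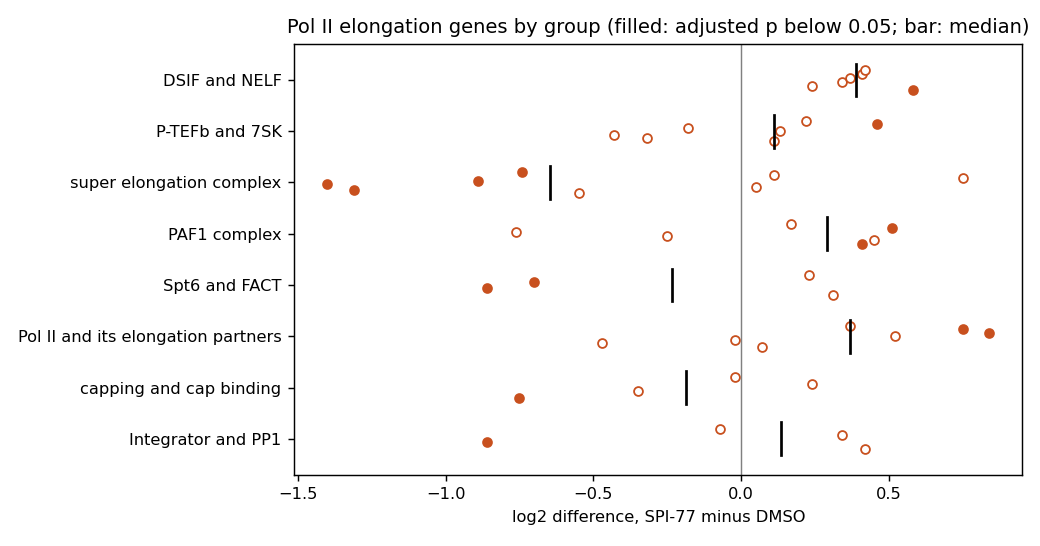
Log2 difference of SPI-77 from DMSO (horizontal axis) for the 6 DSIF and NELF genes and for 40 other elongation genes by group. Each point is a gene, filled where the limma adjusted p is below 0.05, and the bar is the median of the group. The DSIF and NELF points lie between 0.24 and 0.58, and those of the super elongation complex between -1.40 and 0.75.

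With SPI-24, 0 of the 40 genes passed the adjusted threshold by limma, 25 lay above 0 and the median was 0.04. The 3 with the smallest p were Tcea2 (0.46 ± 0.15, SE), Ctr9 of the PAF1 complex (0.24 ± 0.14, SE) and the P-TEFb inhibitor gene Hexim1 (0.17 ± 0.11, SE), with limma adjusted p of 0.975 each.

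**Figure D5:**
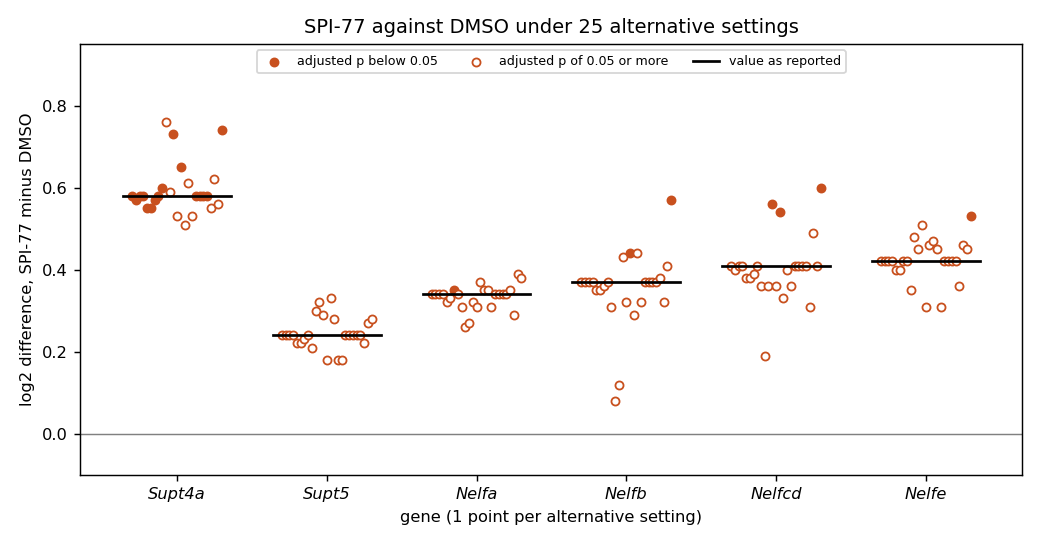
Log2 difference of SPI-77 from DMSO (vertical axis) for each gene under 25 alternative settings, with 1 point per setting, filled where the adjusted p is below 0.05. The black line is the value as reported. No point lies below 0. Supt4a stays between 0.51 and 0.76 and passes the threshold in 16 of 25 settings, while Nelfb reaches down to 0.08.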

How the data were processed

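RNA was measured in BACHD striatal tissue punches from 4 DMSO, 4 SPI-24 and 3 SPI-77 libraries, grouped by their labels, as poly(A) RNA with a stranded kit. The study sequenced 50-base single reads at 2 sites, and which library came from which site is not given in the labels. By the methods and notes they gave, the authors trimmed reads with cutadapt, aligned them to GRCm38 with STAR, dropped reads mapping to more than 1 region, counted per gene with HTSeq and normalized with DESeq2. No version is named in the sources used here. The deposited values are normalized read counts, a signal equal to reads divided by a size factor per library. The deposited table also holds the authors' log2 fold changes, p-values and adjusted p-values against DMSO, which were not used, and a table of calling limits was not used either.

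Within each library 100% of the values were within 0.1 step of a whole multiple of 1 step, so whole reads were recovered. There were 10.2 M to 33.8 M reads per library with a mean of 17.2 M. edgeR and DESeq2 on these reads called 2802 and 4141 genes with SPI-77, and limma called 2879. Deeper libraries carry less counting error, and the p-values measure the spread between these libraries. No pair of libraries of a group agreed within counting noise (lowest chi-square per gene 13.8). Of the gene identifiers, 20924 (99.8%) matched GENCODE annotation of GRCm38, which gave exon lengths and coordinates.

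The main test was limma 3.58.1 (R 4.3.3) with mean-variance trend and robust variance on log2(normalized count + 1) over all 11 libraries, for genes that reached a normalized count of 10 in 3 or more libraries, with Benjamini-Hochberg adjustment over 16768 genes and a threshold of 0.05. A fold change on this scale slightly understates the change of low genes. Tests were also run on simulated counts, drawn with the same relative spread for all genes and no tissue or sex differences. That run cannot show that the calls hold in these libraries. Alternatives were other pseudocounts, filters and scalings, edgeR 4.0.16 and DESeq2 1.42.0, replicate number, sex or marker scores as terms, and libraries left out. Male or female libraries alone were added after seeing the data. The 6 members, the gene lists and the marker lists were chosen with earlier results of these data known. Named genes are all members, the listed elongation genes with an adjusted p below 0.05 or else the 3 with the smallest p, and for each member the 3 genes with the highest Pearson correlation, of which 1 is not reported here. Cdk9, Drd1 and Chat were named after their values were seen.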

Additional observations from a re-analysis of the deposited data

Results flagged for a closer look

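Of 12 sets of 4 libraries (6 genes with DMSO and with SPI-24), 2 held a library that stood far from the other 3, and chance alone marks about 1 in 20 sets. Both were of Nelfe. With DMSO, DMSO 4 had a normalized count of 391.6 while the others lay between 525.0 and 541.5. With SPI-24, SPI-24 1 had 549.86 while the others lay between 398.3 and 410.0. The log2 difference of Nelfe between SPI-24 and DMSO was -0.18 with all libraries, -0.29 without DMSO 4 and -0.29 without SPI-24 1.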

How the results depend on the processing

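The 12 member differences were recomputed under 25 alternative settings per comparison. With SPI-77 no difference changed sign. Supt4a (0.58) passed the threshold in 16 settings and lost it in 9, of which 6 left out a single library (0.51 to 0.65 over all 11 settings with 1 library left out). The others were the medium spiny score as a covariate (0.76), the thalamic score as a covariate (0.59) and leaving out both DMSO 4 and SPI-24 4 (0.53), with adjusted p of 0.267, 0.167 and 0.0583 by limma. Nelfa passed only with DESeq2 on the recovered reads (0.35, adjusted p = 0.0422). Nelfb passed among male libraries (0.57) and without DMSO 1 (0.29 to 0.44 with 1 library left out), Nelfcd with sex as a term (0.56), among male libraries (0.60) and without DMSO 1 (0.31 to 0.54 with 1 library left out), and Nelfe among male libraries (0.53), where limma gave adjusted p of 0.0463. The male DMSO libraries were DMSO 2 and DMSO 4, which had the highest medium spiny and the lowest thalamic scores of that group. With SPI-24 no member passed under any setting. Nelfcd turned there from -0.08 to 0.05 without DMSO 1 (-0.16 to 0.05 with 1 library left out).

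Genes called with SPI-77 numbered 2879, of which 1073 differed at least 2-fold. Leaving out 1 library gave 0 to 4831 and 0 to 1867: limma called 0 when DMSO 2, DMSO 4, or the SPI-77 libraries 1 or 3 were left out, while 4284 to 4898 genes were below 0.05 before adjustment. Either marker score as a covariate gave 0 and 0, leaving out both DMSO 4 and SPI-24 4 gave 1607 and 602, and male libraries alone gave 6232 and 2928. With SPI-24, 0 genes were called and 0 to 2 with 1 library left out (2 without SPI-24 1, both at least 2-fold). The cause of these shifts was not tested.

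The deviations of same-numbered libraries from their group means had low correlations, from -0.156 to 0.205, beside -0.211 to 0.15 for differently numbered ones. The highest were same-numbered, 0.205 for DMSO 3 with SPI-24 3 and 0.17 for DMSO 1 with SPI-24 1. The labels do not call the numbers pairs, and they were not taken as pairs. With the replicate block, limma called 2790 genes with SPI-77 (872 at least 2-fold) and 0 with SPI-24, Supt4a differed by 0.60 with SPI-77 (adjusted p = 0.0330) and no member's call changed. In the shallowest library, SPI-77 3, the members had 287 (Nelfa) to 1809 (Supt5) reads.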

Other observations

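The NELF genes differed in how they varied with glial markers. The score of 5 microglia markers was 9.49 to 9.77 with DMSO, 9.11 to 9.51 with SPI-24 and 9.04 to 9.40 with SPI-77. Over the 11 libraries Nelfa had r of -0.85 (rho -0.85) with this score, and -0.62 after removing group means, while Nelfe had -0.28 (rho -0.35) and -0.05. In the same order Nelfb had -0.74 (rho -0.85) and -0.44, and Nelfcd had -0.44 (rho -0.49) and -0.31. Against the score of 5 oligodendrocyte markers Supt4a had the highest r of the 6 genes, 0.54 (rho 0.50), which was 0.31 without SPI-24 3 and SPI-77 3. Nelfe was close to it at 0.51 (rho 0.46), which was 0.29 without those libraries. These are descriptions over 11 libraries.

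In their share of the 4 NELF genes' summed counts, Nelfb and Nelfcd were nearly level with DMSO, at 34.8% ± 2.31 and 34.5% ± 3.05 (SD, n = 4). With SPI-24 Nelfb made up 37.0% to 44.9% and Nelfcd 26.1% to 32.6% over the 4 libraries, and with SPI-77 Nelfb made up 32.1% to 37.5% and Nelfcd 31.3% to 37.5% over the 3 libraries. SPI-24 3, the library with the highest thalamic score, had the highest Nelfb share (44.9%) and the lowest Nelfcd share (26.1%) of the 11 libraries.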
